A study of Mus musculus with 15 samples.

Results

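The response that spleen B cells and T cells share 4 h after a mitogen was read from 12 of the series' 15 arrays. For each gene, the change from 0 h to 4 h was taken in each lineage, and both changes were averaged. The genes entered were the 7966, of 9045 in the fit, with a mean log2 signal of at least 5 in at least 1 B cell group and at least 1 T cell group. A gene counted as shared when it passed the test in both lineages with the same sign, since the average alone can pass when a single lineage moves. By that measure 2105 genes rose in both lineages and 2020 fell in both. Members of the gene lists are called measured where they met the same rule on level. A gene could meet it through the group in which it was high, so counts over measured members do not speak for a whole list. Nearly all members of some lists were measured, such as 60 of 61 for ribosome biogenesis, and fewer of others. Among these were 10 of 21 cytokines and chemokines, 12 of 18 activation surface molecules, 13 of 20 feedback genes and 12 of 20 G2/M genes. Further cases were 9 of 17 Bcl2 family members, 15 of 22 interferon-stimulated genes, 11 of 16 clock genes and 13 of 18 glycolysis genes. Amino acid and glucose transporters had 10 of 15 and MHC class II genes 9 of 12. Some members were missing because no probe set carried their symbol alone. Of 29 cytoplasmic ribosomal protein genes 19 had such a probe set and 18 were measured.

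The groups, of 3 arrays each, were B cells given 25 ug/ml lipopolysaccharide (LPS) for 4 h, B cells at 0 h, T cells given 7.5 ug/ml concanavalin A (ConA) for 4 h, and T cells at 0 h. T cells given ConA for 14 h entered the fit and are quoted beside the 4 h values where useful. All cells came from the spleens of B6x129 mice, and 100 ng of RNA from each sample was labelled for Affymetrix 3' expression arrays. The labels give neither the sex of the mice nor whether arrays of a group came from separate animals, so p-values measure the spread between arrays, which may be technical. Cells kept for 4 h without a mitogen are not analysed here, so that mitogen and time in culture cannot be told apart in any change from 0 h. Each lineage had its own mitogen, so that lineage and stimulus cannot be told apart in any difference between them.

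Resting lymphocytes are small cells with little protein synthesis, held in that state by transcription factors and inhibitors of growth. LPS, a bacterial cell wall component, is sensed by B cells through Toll-like receptor 4. ConA, a plant lectin, cross-links surface glycoproteins that include the T cell receptor. Both signals run through the transcription factor NF-kappaB and the MAP kinase cascades, induce early response genes that include Myc, and are followed by growth in size and later by entry into the cell cycle.

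Array-wide checks bear on the values that follow. Correlations between arrays were 0.995 to 0.999 within groups and 0.893 to 0.990 between groups. A spiked-in bacterial transcript lost signal towards its 5' end on T ConA 4 h replicate 1 and T 0 h replicate 2, where its 3' signal exceeded its 5' signal by 5.35 and 4.52 on the log2 scale, against 1.39 to 1.96 on the other T cell arrays and 0.21 to 0.78 on the B cell arrays. Actin, which checks the sample RNA itself, had a 3' signal above its 5' signal by 0.56 to 0.91 in T cells with ConA and 0.39 to 0.50 in T cells at 0 h, with no overlap, and by 0.42 to 0.51 in B cells with LPS and 0.47 to 0.50 in B cells at 0 h. The 18S rRNA probe set read 10.24 to 11.65 in T cells with ConA and 9.24 to 10.66 at 0 h, and 6.11 to 6.62 in B cells with LPS and 5.53 to 6.15 at 0 h. The part of these differences in the changes was not tested. The deviations of the 2 arrays with weak 5' spike-in signal from their group means correlated at 0.575 over genes. The average change of Myc and the counts of shared and opposite calls are also given without those 2 arrays. Most lineage markers went with the labels. The summed T cell markers reached 7.38 to 7.57 in B cells with LPS and 10.97 to 11.07 in B cells at 0 h, against 15.48 to 15.53 in T cells with ConA and 15.98 to 16.03 in T cells at 0 h. The sum in B cells at 0 h lay close to Cd2 alone, which averaged 10.93 there and 5.72 with LPS. Cd3e, the next highest T cell marker in B cells at 0 h, averaged 5.04. The summed B cell markers reached 16.10 to 16.17 in B cells with LPS and 17.23 to 17.28 in B cells at 0 h, against 13.47 to 13.61 in T cells with ConA and 13.77 to 13.87 in T cells at 0 h. Ighm, the immunoglobulin mu chain and a B cell marker, did not separate the lineages, with means of 13.36 in B cells with LPS and 14.15 at 0 h, and 13.42 in T cells with ConA and 13.76 at 0 h. Equal RNA mass was labelled, so that a change in the RNA content of a cell is not seen here, and fewer cells of a type cannot be told apart from less RNA per cell. GCRMA, the authors' normalization, sets a floor of 2.24, and a change against a group near it understates the difference.

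Most of the genes tested were called between 4 h and 0 h in each lineage. With LPS, 3177 genes (39.9%) rose and 3347 (42.0%) fell in B cells. With ConA, 2793 (35.1%) rose and 2573 (32.3%) fell in T cells. Genes that rose in both lineages made up 26.4% of the genes tested, those that fell in both 25.4%, and those called in opposite directions 7.59%, which is 605 genes. Counts within the gene lists below are to be set beside these shares. Of the B cell rises, 66.3% rose in T cells and 8.40% fell there, and of the T cell rises, 75.4% rose in B cells and 12.1% fell there. Of the B cell falls, 60.4% fell in T cells and 10.1% rose there, and of the T cell falls, 78.5% fell in B cells and 10.4% rose there. Across the 7966 genes the B and T cell changes correlated with a Pearson r of 0.628 and a Spearman rho of 0.671; the points share probe sets and normalization but no arrays, and genes are not independent replicates.

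A stricter set moved at least 2-fold in both lineages. It held 511 genes that rose (6.41% of those tested) and 598 that fell (7.51%). The median change of the risers was 2.42 in B cells and 1.41 in T cells on the log2 scale, and that of the fallers was -2.36 in B cells and -1.62 in T cells. The same medians over all genes tested were -0.02 in B cells and 0.02 in T cells. A group mean under 4, close to the floor, was present in a lineage for 67 of the risers and 141 of the fallers. After 14 h of ConA, measured against the same T 0 h arrays, the median change of the risers was 1.32 and that of the fallers -1.30, against 0.06 over all genes.

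The average of both lineages called more genes than the shared measure. It called 3270 rises (41.0%) and 3385 falls (42.5%). Of the rises, 2105 were shared, 983 were called in a single lineage, 141 were called in opposite directions and 41 were called in neither. Of the falls, 2020 were shared, 1109 were called in a single lineage, 212 in opposite directions and 44 in neither. The lineages differed in size as well: the test of the B response minus the T response called 65.3% of genes. Among the 2105 shared rises the B cell change was the larger by that test for 1259 genes and the T cell change for 149, while 697 did not pass. Among the 2020 shared falls the counts were 1171, 187 and 662.

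**Figure D1:**
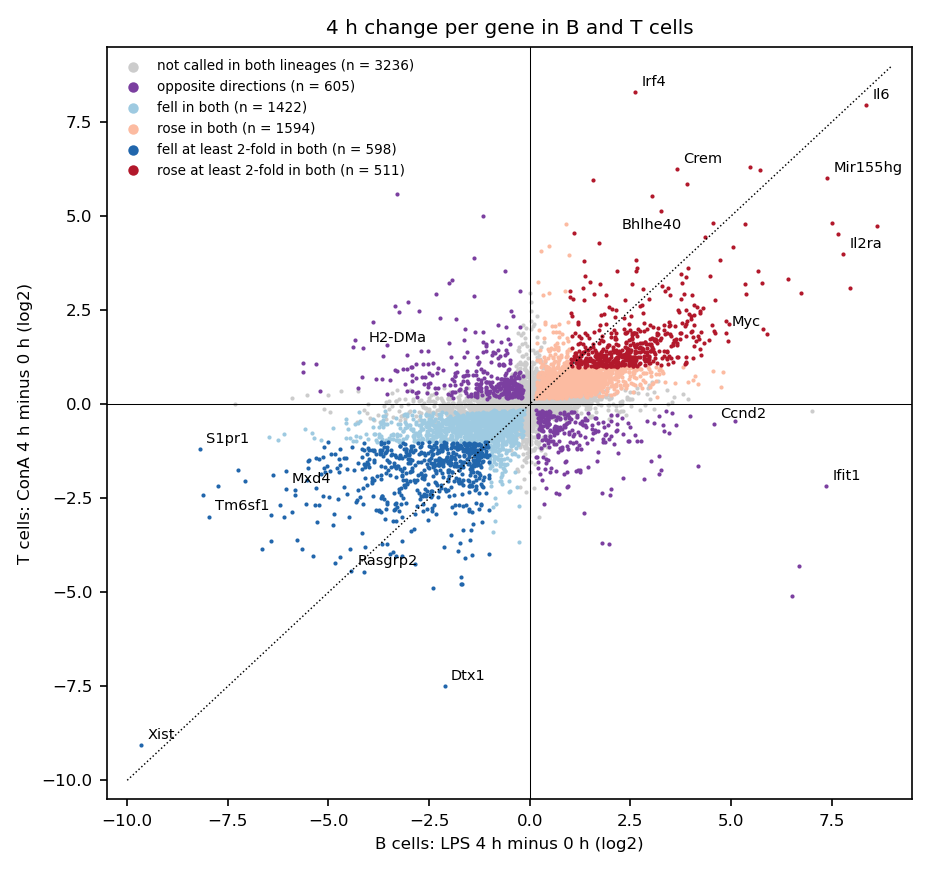
Change in T cells (ConA 4 h minus 0 h, vertical axis, log2) against change in B cells (LPS 4 h minus 0 h, horizontal axis, log2), with 1 point for each of the 7966 genes and colour by call. The 511 genes in dark red and the 598 in dark blue moved at least 2-fold in both lineages, the dotted line marks equal changes, and Xist lies farthest down at -9.65 in B cells and -9.06 in T cells.

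The share of genes that rose in both lineages grew with their level. Sorted into 5 equal bins by mean signal over the 12 arrays, 17.3%, 24.6%, 27.9%, 30.8% and 31.6% rose in both from the lowest bin to the highest. The share that fell in both was 28.9%, 27.2%, 23.5%, 24.1% and 23.1%. Falls of at least 2-fold in both lineages made up 13.2% of the lowest bin and 4.08% of the highest. The level is itself an average over the 4 h and 0 h arrays, and the floor lies within reach of the lowest bin, so these shares are a description.

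**Figure D2:**
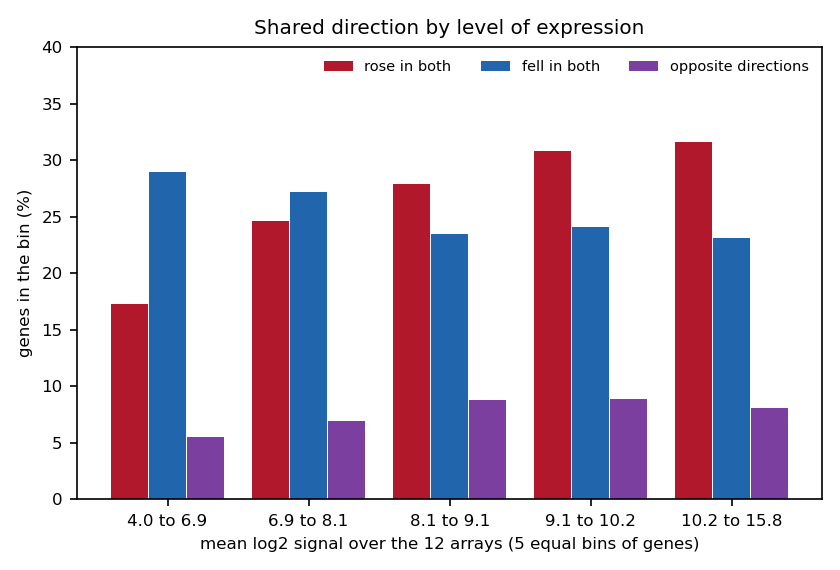
Percentage of genes that rose in both lineages, fell in both or were called in opposite directions (bars), in 5 equal bins of the mean log2 signal over the 12 arrays (horizontal axis). The shared rises take 17.3% of the lowest bin and 31.6% of the highest, and the shared falls 28.9% and 23.1%.

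Myc, a transcription factor that drives growth genes and the subject of the study's title, rose in both lineages. In B cells its log2 signal was 12.15, 11.81 and 12.07 on the LPS arrays, against 6.92, 7.21 and 7.29 on the 0 h arrays, and in T cells 8.37, 10.21 and 10.19 on the ConA arrays, against 8.38, 6.88 and 7.80 on the 0 h arrays. All LPS arrays lay above the B cell 0 h arrays, but ConA replicate 1 lay level with T 0 h replicate 1, and the 2 arrays with weak 5' spike-in signal were the lowest of their groups. The change was 4.87 ± 0.43 in B cells (adjusted p = 1.08e-07) and 1.91 ± 0.43 in T cells (adjusted p = 0.00143), and the B cell change was the larger by 2.96 ± 0.61 (adjusted p = 0.00069). Without those 2 arrays the average change was 3.49, against 3.39 with them. After 14 h of ConA the change in T cells was 2.21 ± 0.43.

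Of 24 measured transcription factors known to be induced by signals at the cell surface, 17 rose in both lineages, 0 fell in both and 2 went in opposite directions. Shares over all genes tested were 26.4%, 25.4% and 7.59%. The median average change of the list was 2.75 against -0.01 over all genes. Nr4a1, an orphan nuclear receptor switched on by antigen receptor signals, was among the highest. Its log2 signal in B cells was 11.92, 12.16 and 12.12 on the LPS arrays, against 7.07, 7.12 and 6.82 on the 0 h arrays. The T cell values were 12.40, 12.50 and 12.30 on the ConA arrays, against 8.04, 8.39 and 8.23 on the 0 h arrays. The change of Nr4a1 was 5.06 ± 0.10 in B cells (adjusted p = 2.87e-14) and 4.18 ± 0.10 in T cells (adjusted p = 8.77e-13). Its relative Nr4a3 changed by 7.50 ± 0.16 in B cells and 4.81 ± 0.16 in T cells. Bhlhe40, a helix-loop-helix repressor, moved by nearly the same amount in both lineages although its levels differed. On the log2 scale B cells gave 12.49, 12.21 and 12.42 on the LPS arrays, against 7.96, 8.28 and 7.83 on the 0 h arrays, and T cells 9.17, 9.17 and 9.17 on the ConA arrays, against 4.91, 4.85 and 4.42 on the 0 h arrays. T cells with ConA lay nearer to B cells at 0 h than to B cells with LPS. The changes were 4.35 ± 0.13 in B cells (adjusted p = 1.08e-12) and 4.45 ± 0.13 in T cells (adjusted p = 4.3e-12), with a difference of -0.10 ± 0.19 (adjusted p = 0.671), which did not pass. Atf3, a stress-induced factor of the bZIP class, changed by 5.34 ± 0.14 in B cells and 4.79 ± 0.14 in T cells.

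Irf4 and Crem rose more in T cells. Irf4, an interferon regulatory factor needed for effector and plasma cell differentiation, was already high in resting B cells. The B cell signals were 12.57, 12.64 and 12.63 on the LPS arrays, against 10, 9.98 and 10 on the 0 h arrays (log2), and the T cell signals 13.05, 13.25 and 13.15 on the ConA arrays, against 5.15, 5.19 and 4.20 on the 0 h arrays. The 4 h levels of both lineages were close, whereas the 0 h levels were far apart. The changes were 2.62 ± 0.19 in B cells (adjusted p = 1.26e-08) and 8.31 ± 0.19 in T cells (adjusted p = 3.72e-13); the B minus T response was -5.68 ± 0.27 (adjusted p = 4.13e-10), and a second probe set of Irf4 gave 4.75 in T cells. Crem, a cyclic AMP-responsive factor, changed by 3.65 ± 0.13 in B cells and 6.26 ± 0.13 in T cells, and the T cell response was the larger (B minus T response -2.61 ± 0.18 (adjusted p = 2.09e-08)). Tgif1, a homeobox repressor of TGF-beta signalling, changed by 3.75 ± 0.12 in B cells and 3.45 ± 0.12 in T cells, with no called difference between the lineages. Members that went opposite ways were Egr3, at -2.34 in B cells and 2.93 in T cells, and Fos, at 3.99 in B cells and -0.32 in T cells. Jun changed by 7.02 in B cells, while its change of -0.17 in T cells did not pass.

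NF-kappaB is itself induced when it is active, together with its inhibitors. Of 19 measured subunits and targets, 15 rose in both lineages and 0 fell in both, beside 26.4% and 25.4% of all genes tested. The median average change was 2.24. Rel, the c-Rel subunit, changed by 2.82 in B cells and 3.07 in T cells. Tnfaip3, the ubiquitin-editing enzyme A20 that restrains the pathway, changed by 3.48 ± 0.06 in B cells and 2.90 ± 0.06 in T cells. Cd83, a surface protein of activated cells, changed by 2.65 ± 0.10 in B cells and 3.84 ± 0.10 in T cells, and Bcl2l1, the survival factor Bcl-xL, by 4.32 ± 0.10 in B cells and 1.62 ± 0.10 in T cells. Tnfaip2 was the member called in opposite directions, at 0.94 in B cells and -2.17 in T cells.

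Secreted signals were among the largest shared rises. Il6, a cytokine that acts on B and T cells alike, had the largest average rise. B cells gave log2 signals of 10.60, 10.64 and 10.66 on the LPS arrays, against 2.34, 2.24 and 2.24 on the 0 h arrays. T cells gave 11.64, 11.59 and 11.49 on the ConA arrays, against 3.73, 3.54 and 3.57 on the 0 h arrays. The 0 h arrays of B cells were at or near the floor, and all 4 h arrays were high. The changes were 8.36 ± 0.07 in B cells (adjusted p = 7.69e-18) and 7.96 ± 0.07 in T cells (adjusted p = 3.76e-17). Of 10 measured cytokines and chemokines 7 rose in both, beside 26.4% of all genes tested. Of these 10, 1 fell in both and 2 were called in opposite directions, beside 25.4% and 7.59%. Chemokines among them were Cxcl10, a ligand of Cxcr3, at 8.62 ± 0.16 in B cells and 4.74 ± 0.16 in T cells, and Ccl3, an inflammatory chemokine, at 7.67 ± 0.08 in B cells and 4.52 ± 0.08 in T cells. Ccl4, another inflammatory chemokine, changed by 5.48 ± 0.31 in B cells and 6.30 ± 0.31 in T cells, and the difference between its responses did not pass the test (adjusted p = 0.12). Il1b, which myeloid cells make in quantity, changed by 6.73 in B cells and 2.97 in T cells. Ltb, a membrane-bound lymphotoxin, was the member that fell, by 2.32 in B cells and by 1.01 in T cells. Lta and Ccl5 were called in opposite directions, at -1.32 and 0.78 for Lta and 3.21 and -1.86 for Ccl5 in B and T cells.

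Myeloid markers were measured beside these rises. Of the 10 markers of monocytes, macrophages and neutrophils in the fit, of which 5 met the rule on level in both lineages, 0 rose and 9 fell in B cells, where 79.9% of all genes in the fit were called, and 2 rose and 2 fell in T cells, where 65.9% were. The summed level of that list was 11.68 to 11.90 in B cells with LPS and 13.54 to 13.61 at 0 h, and 10.80 to 11.24 in T cells with ConA and 9.60 to 10.01 at 0 h. In B cells with LPS it lay close to Mpeg1 alone, which averaged 11.48, against 11.15 in B cells at 0 h. In T cells S100a8 and S100a9, abundant in neutrophils, rose by 2.71 and 2.45, while the macrophage genes Csf1r, Adgre1, Vcam1 and Spic had means under 3 in both T cell groups. Other members of the list had signal in T cells. Lyz2 averaged 6.18 with ConA and 7.16 at 0 h, and Lyz1 7.54 and 8.34, with called changes of -0.98 and -0.80. Mpeg1 averaged 6.6 and 7.0, and its change did not pass. The part of such cells in the rise of Il6, Il1b or the chemokines was not tested.

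Mir155hg, the transcript from which miR-155 is cut, had the second largest average rise. In B cells its log2 signal was 12.44, 12.46 and 12.51 on the LPS arrays, against 5.26, 5.20 and 4.76 on the 0 h arrays, and in T cells 9.21, 9.98 and 9.96 on the ConA arrays, against 3.76, 3.57 and 3.76 on the 0 h arrays. The changes were 7.40 ± 0.18 in B cells (adjusted p = 1.33e-13) and 6.02 ± 0.18 in T cells (adjusted p = 4.6e-12). After 14 h of ConA it stood 5.85 ± 0.18 above T 0 h. The array measures the host transcript and not the mature miRNA, whose main product is shown because its seed, bases 2 to 8 in capitals, sets which messages it can pair with (RefSeq, GRCm38.p6, chr16:84714143-84714165, plus strand).
mmu-miR-155-5p: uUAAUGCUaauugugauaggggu

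Surface molecules of activation rose in both lineages for 9 of 12 measured genes, with 0 falls in both, beside 26.4% and 25.4% of all genes tested. Il2ra, the alpha chain of the high-affinity interleukin 2 receptor, is a classical T cell activation marker. Its log2 signal in B cells was 10.19, 10.31 and 10.27 on the LPS arrays, against 2.41, 2.41 and 2.59 on the 0 h arrays. The T cell values were 9.12, 9.18 and 9.16 on the ConA arrays, against 5.56, 4.87 and 5.06 on the 0 h arrays. B cells with LPS ended above T cells with ConA, although they started from close to the floor. The changes were 7.79 ± 0.13 in B cells (adjusted p = 3.45e-15) and 3.99 ± 0.13 in T cells (adjusted p = 1.02e-11). Cd69, which holds activated cells in lymphoid tissue, changed by 3.68 ± 0.11 in B cells and 2.5 ± 0.11 in T cells. Sema7a, a semaphorin, changed by 1.58 ± 0.10 in B cells and 5.97 ± 0.10 in T cells, the T cell change being the larger. Tnfrsf18, Slamf1 and Il4ra were the 3 members called in opposite directions, all lower in B cells with LPS and higher in T cells with ConA than at 0 h. A second probe set of Slamf1 gave 0.29 in B cells (adjusted p = 0.642) and 4.03 in T cells, so that its opposite call rests on 1 probe set.

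Most measured genes that damp signalling rose in both lineages. Of 13 measured feedback genes 8 rose in both and 0 fell in both, beside 26.4% and 25.4% of all genes tested. Dusp4 and Dusp5 encode nuclear phosphatases of MAP kinases. Dusp5 had a log2 signal of 10.68, 10.72 and 10.79 on the LPS arrays, against 5.04, 4.86 and 4.99 on the 0 h arrays, in B cells. T cells gave 10.64, 10.90 and 10.76 on the ConA arrays, against 7.59, 7.67 and 7.34 on the 0 h arrays. The 4 h levels of both lineages overlapped, and the changes were 5.76 ± 0.09 in B cells (adjusted p = 3.19e-15) and 3.23 ± 0.09 in T cells (adjusted p = 3.64e-12). Dusp4 changed by 3.93 ± 0.09 in B cells and 3.62 ± 0.09 in T cells. Rgs1, which shortens chemokine receptor signals, changed by 3.79 ± 0.16 in B cells and 3.23 ± 0.16 in T cells, whereas its relative Rgs2 was called in opposite directions, at -3.47 in B cells and 0.65 in T cells. Dusp6 changed by -7.33 in B cells, and its change of 0.01 in T cells did not pass.

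Among the remaining large shared rises were Lad1, the anchoring filament protein ladinin, and Txnrd3, a thioredoxin reductase. Lad1 changed by 5.73 ± 0.12 in B cells and 6.22 ± 0.12 in T cells, and Txnrd3 by 6.41 ± 0.21 in B cells and 3.32 ± 0.21 in T cells. Gadd45b, a stress-response activator of MAP kinase signalling, had a log2 signal of 12.25, 12.34 and 12.37 on the LPS arrays, against 7.63, 7.52 and 7.63 on the 0 h arrays, in B cells. T cell signals were 10.58, 10.47 and 10.43 on the ConA arrays, against 6.71, 6.87 and 6.38 on the 0 h arrays. Its changes were 4.73 ± 0.10 in B cells (adjusted p = 4.15e-14) and 3.84 ± 0.10 in T cells (adjusted p = 1.42e-12).

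The machinery that makes ribosomes rose as a block. Of 60 measured ribosome biogenesis genes 57 rose in both lineages and 0 fell in both, against 26.4% and 25.4% of all genes tested, and 45 of them rose at least 2-fold in both. The median change of the list was 2.41 in B cells and 1.23 in T cells, and 1.06 after 14 h of ConA. Rrp12, a factor for the export of ribosomal subunits, showed the pattern. On the log2 scale B cells gave 9.79, 9.70 and 9.85 on the LPS arrays, against 5.42, 5.22 and 4.93 on the 0 h arrays, and T cells 9.42, 9.36 and 9.27 on the ConA arrays, against 7.32, 7.45 and 7.43 on the 0 h arrays. The 4 h levels were close to each other, and B cells had started lower. Its changes were 4.59 ± 0.10 in B cells (adjusted p = 4.83e-14) and 1.95 ± 0.10 in T cells (adjusted p = 1.09e-09). Rrp9, which binds U3 small nucleolar RNA, changed by 4.87 ± 0.28 in B cells and 2.20 ± 0.28 in T cells. Polr1b, the second largest subunit of RNA polymerase I, changed by 3.72 ± 0.13 in B cells and 2.45 ± 0.13 in T cells. Nop2, an rRNA methyltransferase, changed by 3.02 in B cells and 1.61 in T cells. Polr1d and Emg1 were not called in both, and Ubtf, which activates ribosomal RNA genes, was called in opposite directions at 0.94 in B cells and -0.26 in T cells.

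The mRNAs of the ribosome's own proteins did not share that rise. Of 18 measured cytoplasmic ribosomal protein genes 0 rose and 5 fell in both lineages, beside 26.4% and 25.4% of all genes tested. Falls were thus about as common as over all genes. The median change of the list was -0.07 in B cells and -0.10 in T cells. Their falls were small: Rps3 changed by -0.25 ± 0.06 in B cells and -0.23 ± 0.06 in T cells, Rpl22 by -0.28 ± 0.06 in B cells and -0.18 ± 0.06 in T cells and Rpl6 by -0.23 ± 0.06 in B cells and -0.21 ± 0.06 in T cells. A second and far dimmer probe set of Rps3 gave 0.09 in B cells (adjusted p = 0.727) and 0.06 in T cells (adjusted p = 0.837). The second probe set of Rpl22 was nearly as bright as its first, with group means of 13.5 to 13.7. It gave -0.15 in B cells and -0.10 in T cells, neither of which passed. These transcripts lie near the top of the signal range, with log2 means around 14 (Rps3 had 14.19 in B cells with LPS, 14.45 at 0 h, 14.17 in T cells with ConA and 14.40 at 0 h). With the spike-in batch as a term in the fit the counts were 1 rise and 6 falls.

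Other genes of protein synthesis rose as well. Of 19 measured cytosolic tRNA synthetases 16 rose in both lineages and 0 fell in both, beside 26.4% and 25.4% of all genes tested. Cars, which charges cysteine tRNA, changed by 3.89 ± 0.17 in B cells and 1.13 ± 0.17 in T cells. Tars (threonine) changed by 2.72 in B cells and 1.07 in T cells, and Aars (alanine) by 3.03 in B cells and 0.76 in T cells. Of 18 measured translation factors 14 rose in both and 0 fell in both. Eif2b3, a subunit of the exchange factor that recharges eIF2, changed by 3.21 ± 0.11 in B cells and 1.42 ± 0.11 in T cells. Eif1a, a start codon scanning factor, changed by 2.46 in B cells and 1.72 in T cells, and Eef1e1, a scaffold protein of the synthetase complex, by 2.58 in B cells and 1.01 in T cells. Sars, and Eif4ebp1, a repressor of cap-dependent initiation, were called in opposite directions, both higher with LPS in B cells and lower with ConA in T cells.

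Protein folding and turnover genes rose in the same way with smaller changes. Of 21 measured chaperones and chaperonins 20 rose in both lineages, 0 fell and 0 were opposite, beside 26.4%, 25.4% and 7.59% of all genes tested. Dnaja1 was not called in T cells. Hsph1, a nucleotide exchange factor of Hsp70, changed by 2.53 ± 0.07 in B cells and 1.11 ± 0.07 in T cells. Hspa9, the mitochondrial Hsp70, changed by 1.98 in B cells and 1.37 in T cells, and Stip1, which links Hsp70 to Hsp90, by 2.17 in B cells and 1.00 in T cells. Of 29 measured proteasome genes 25 rose in both and 0 fell, beside the same 26.4% and 25.4%. The median change was 1.04 in B cells and 0.65 in T cells. Psme3, the nuclear proteasome activator, led them at 2.11 ± 0.07 in B cells and 1.78 ± 0.07 in T cells. Psmc5 and Psmd7, both of the regulatory particle, changed by 1.61 and 1.02 and by 1.87 and 0.83 in B and T cells, and a second probe set of Psmd7 gave 0.30, which did not pass, and 0.43. In T cells the arrays of Psmd7 overlapped, at 9.28, 10.38 and 10.40 with ConA and 9.32, 8.82 and 9.43 at 0 h. The arrays with weak 5' spike-in signal were the lowest of both groups.

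Genes that feed growth rose in most of their lists. Of 25 measured genes that make nucleotides, one-carbon units and polyamines, 18 rose in both lineages and 2 fell in both. Over all genes tested 26.4% and 25.4% did so. Srm, spermidine synthase, changed by 3.87 ± 0.08 in B cells and 2.07 ± 0.08 in T cells. Psat1, of serine synthesis, changed by 3.64 in B cells and 1.74 in T cells, and Shmt2, the mitochondrial serine hydroxymethyltransferase, by 3.57 in B cells and 1.64 in T cells. Ctps2 fell by 2.26 in B cells and by 0.54 in T cells, while its paralogue Ctps changed by 3.16 in B cells and 1.89 in T cells. Prps2 fell by 1.21 in B cells and by 1.09 in T cells, while Prps1 changed by 1.97 in B cells and 1.57 in T cells. Phgdh, the entry enzyme of serine synthesis, was called in opposite directions at 1.26 in B cells and -0.82 in T cells.

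Of 10 measured amino acid and glucose transporters 7 rose and 1 fell in both lineages, beside 26.4% and 25.4% of all genes tested. Slc7a5, the large neutral amino acid carrier, was the highest. The B cell signals were 11.03, 11.11 and 11.06 on the LPS arrays, against 6.55, 7.08 and 6.64 on the 0 h arrays (log2), and the T cell signals 10.45, 9.97 and 10.06 on the ConA arrays, against 7.56, 7.84 and 7.41 on the 0 h arrays. Every 4 h array stood above every 0 h array, with changes of 4.31 ± 0.15 in B cells (adjusted p = 4.84e-12) and 2.56 ± 0.15 in T cells (adjusted p = 4.32e-09). Slc7a1, a carrier of cationic amino acids, changed by 2.70 in B cells and 2.01 in T cells, and Slc7a6 by 2.43 in B cells and 1.49 in T cells. Slc2a3, a glucose transporter, fell by 1.93 in B cells and by 1.81 in T cells.

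Of 16 measured cholesterol synthesis genes 10 rose in both lineages and 1 fell in both, beside 26.4% and 25.4% of all genes tested. The median change of the list was 3.35 in B cells and 0.93 in T cells. Sqle, squalene epoxidase, had a log2 signal of 10.06, 10.05 and 9.99 on the LPS arrays, against 4.97, 5.18 and 5.14 on the 0 h arrays, in B cells. Signals in T cells were 8.45, 8.57 and 8.60 on the ConA arrays, against 6.95, 6.78 and 6.84 on the 0 h arrays. Both lineages rose without overlap, by 4.94 ± 0.07 in B cells (adjusted p = 1.04e-15) and 1.68 ± 0.07 in T cells (adjusted p = 1.65e-10). Cyp51, lanosterol demethylase, changed by 4.09 ± 0.10 in B cells and 2.39 ± 0.10 in T cells, and Idi1, isopentenyl diphosphate isomerase, by 4.27 ± 0.08 in B cells and 1.91 ± 0.08 in T cells. Mvd was called in opposite directions, at 1.88 in B cells and -0.99 in T cells, and Dhcr7 fell by 0.76 in B cells and by 1.19 in T cells.

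Glycolysis and nuclear transport gave mixed lists. Of 13 measured glycolysis genes 7 rose in both and 1 fell in both, beside 26.4% and 25.4% of all genes tested. Hk2, the inducible hexokinase, changed by 4.59 ± 0.21 in B cells and 2.76 ± 0.21 in T cells, and Hk1, the constitutive form, fell by 1.44 in B cells and by 0.49 in T cells. Pgam1 changed by 1.68 in B cells and 1.33 in T cells and Ldha, lactate dehydrogenase A, by 2.13 in B cells and 0.82 in T cells. Tpi1 was called in opposite directions. Of 34 measured nuclear transport genes 22 rose in both and 0 fell in both. Nup43, a nucleoporin, changed by 4.24 in B cells and 1.47 in T cells, Ipo4, an importin, by 3.41 in B cells and 1.90 in T cells, and Rcc1, the exchange factor for Ran, by 3.61 in B cells and 1.67 in T cells. Tnpo1 and Nup160 were called in opposite directions, but a second probe set of Tnpo1 rose in both lineages, by 1.04 in B cells and 0.70 in T cells.

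Respiratory chain genes changed little. Of 27 measured genes 7 rose in both lineages and 1 fell in both, beside 26.4% and 25.4% of all genes tested. Ndufa5 of complex I changed by 1.03 ± 0.07 in B cells and 0.76 ± 0.07 in T cells, Uqcrfs1, the Rieske protein of complex III, by 0.64 ± 0.06 in B cells and 0.54 ± 0.06 in T cells, and Cox5a of complex IV by 0.85 ± 0.07 in B cells and 0.36 ± 0.07 in T cells. Sdhd was called in opposite directions, although its second probe set did not pass in T cells, at -0.15 (adjusted p = 0.236).

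**Figure D3:**
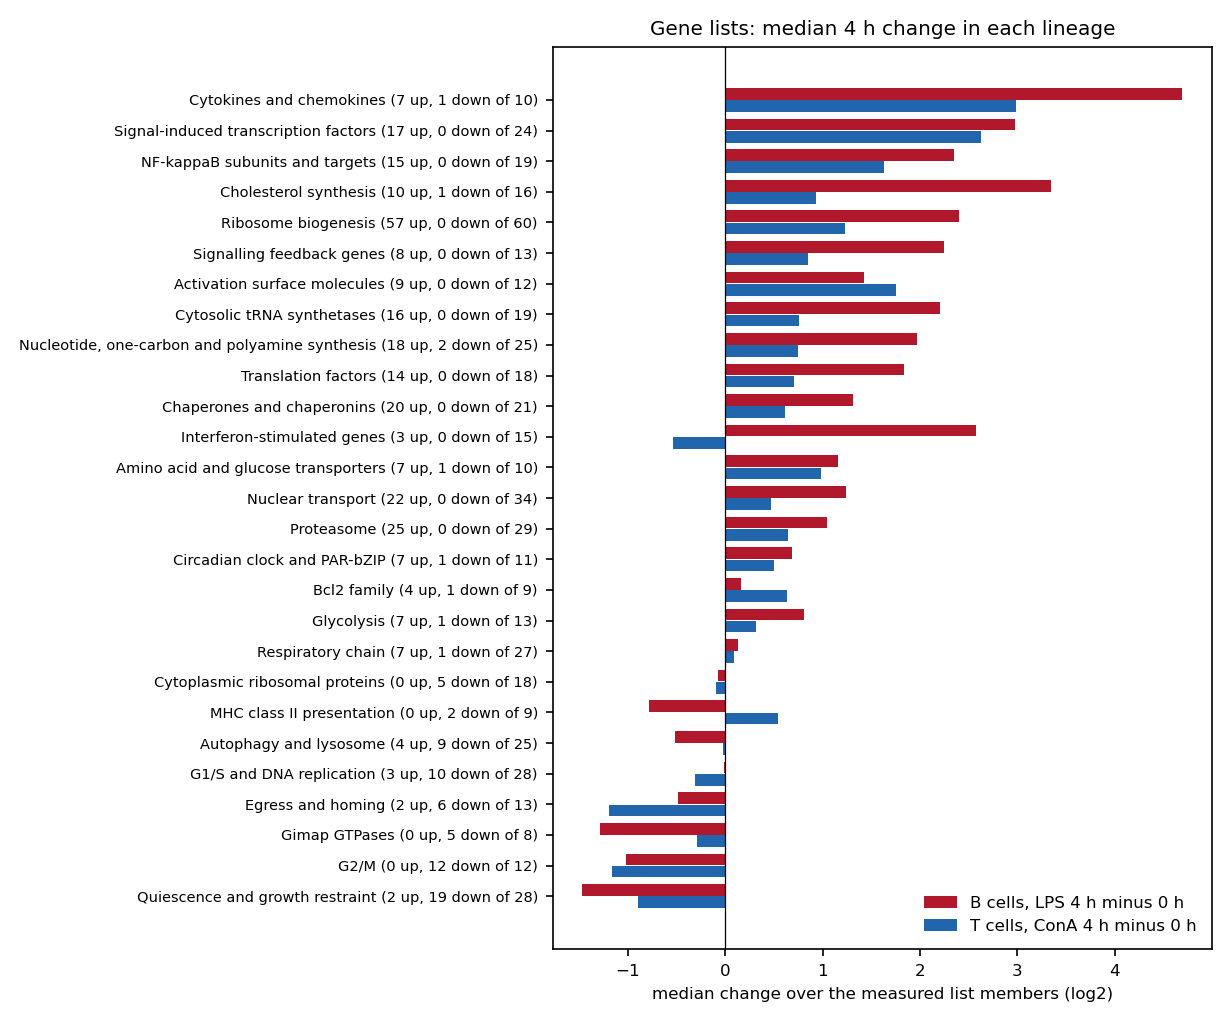
Median log2 change over the measured members of each gene list, with LPS 4 h minus 0 h in B cells as the upper bar and ConA 4 h minus 0 h in T cells as the lower bar of each pair, and the counts of members that rose or fell in both lineages beside each name. Ribosome biogenesis stands at 2.41 and 1.23, quiescence genes at -1.47 and -0.90, and the interferon-stimulated genes have medians of opposite sign, 2.57 and -0.54.

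The genes with large shared falls had varied roles. Rasgrp2, an exchange factor that activates the GTPase Rap1, fell by close to the same amount in both lineages. B cells gave log2 signals of 5.45, 5.12 and 5.10 on the LPS arrays, against 9.67, 9.61 and 9.72 on the 0 h arrays. T cells gave 5.88, 5.8 and 6.0 on the ConA arrays, against 10.41, 10.24 and 10.35 on the 0 h arrays. All 4 h arrays lay below all 0 h arrays, which was a condition for naming the gene. The changes were -4.44 ± 0.09 in B cells (adjusted p = 2.44e-14) and -4.44 ± 0.09 in T cells (adjusted p = 1.07e-13), with a difference of -0.004 ± 0.13 (adjusted p = 0.977). Sipa1, which switches Rap1 off, changed by -6.21 ± 0.12 in B cells and -2.68 ± 0.12 in T cells. Rgs14, a regulator of G protein signalling, changed by -4.17 ± 0.16 in B cells and -3.43 ± 0.16 in T cells. Tbc1d10c, an inhibitor of Ras and calcineurin signalling, changed by -6.44 ± 0.12 in B cells and -2.94 ± 0.12 in T cells, and Sh2d3c, an adaptor in integrin signalling, by -4.46 ± 0.23 in B cells and -3.85 ± 0.23 in T cells.

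Itgb7, the beta 7 integrin used in homing to the gut, fell to the floor region in B cells. In B cells its log2 signal was 2.93, 2.93 and 2.93 on the LPS arrays, against 7.83, 7.68 and 7.77 on the 0 h arrays, and in T cells 7.0, 6.74 and 6.84 on the ConA arrays, against 11.15, 11.01 and 11.06 on the 0 h arrays. T cells kept a signal at 4 h, and the changes were -4.83 ± 0.07 in B cells (adjusted p = 1.18e-15) and -4.21 ± 0.07 in T cells (adjusted p = 2.6e-14). S1pr1, the sphingosine 1-phosphate receptor that lets lymphocytes leave lymphoid organs, fell far more in B cells. Its log2 signal in B cells was 3.62, 2.91 and 3.43 on the LPS arrays, against 11.51, 11.47 and 11.57 on the 0 h arrays. The T cell values were 10.07, 10.18 and 10.09 on the ConA arrays, against 11.34, 11.09 and 11.49 on the 0 h arrays. B cells with LPS were near the floor, while T cells with ConA were still high. The changes were -8.20 ± 0.14 in B cells (adjusted p = 6.65e-15) and -1.19 ± 0.14 in T cells (adjusted p = 6.56e-06), and the difference between them was -7.00 ± 0.20 (adjusted p = 3.57e-12). Of 13 measured egress and homing genes 6 fell in both lineages, 2 rose in both and 4 were called in opposite directions, beside 25.4%, 26.4% and 7.59% of all genes tested. S1pr4, another receptor of the family, changed by -5.11 ± 0.21 in B cells and -1.15 ± 0.21 in T cells. Cxcr4, Itgal, Selplg and Il7r were called in opposite directions, of which Il7r, the interleukin 7 receptor, stood at 3.02 in B cells and -1.52 in T cells.

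Dtx1, a ubiquitin ligase of the Notch pathway, fell more in T cells. On the log2 scale B cells gave 9.63, 9.58 and 9.75 on the LPS arrays, against 11.77, 11.69 and 11.84 on the 0 h arrays, and T cells 3.95, 3.86 and 3.97 on the ConA arrays, against 11.35, 11.47 and 11.43 on the 0 h arrays. T cells with ConA were the only group near the floor. The changes were -2.11 ± 0.07 in B cells (adjusted p = 3.76e-12) and -7.49 ± 0.07 in T cells (adjusted p = 7.11e-17), with a B minus T response of 5.38 ± 0.10 (adjusted p = 5e-14). Cmah, which makes the sialic acid Neu5Gc in mice, changed by -8.12 ± 0.16 in B cells and -2.43 ± 0.16 in T cells; its second probe set gave -1.12 in B cells. Pgap1, which remodels GPI anchors, changed by -6.10 ± 0.25 in B cells and -3.0 ± 0.25 in T cells, but its second probe set gave 0.01 in T cells. Acp5, tartrate-resistant acid phosphatase, changed by -4.72 ± 0.08 in B cells and -4.06 ± 0.08 in T cells, Ampd3, an AMP deaminase, by -4.11 ± 0.28 in B cells and -4.46 ± 0.28 in T cells, and Myo18a, an unconventional myosin, by -3.54 ± 0.18 in B cells and -3.73 ± 0.18 in T cells. Septin9, a cytoskeletal GTPase, changed by -5.65 ± 0.15 in B cells and -3.84 ± 0.15 in T cells. Tm6sf1 changed by -7.97 ± 0.15 in B cells and -2.99 ± 0.15 in T cells, Ccdc69 by -6.66 in B cells and -3.84 in T cells and Fam214a by -7.24 in B cells and -1.74 in T cells.

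**Figure D4:**
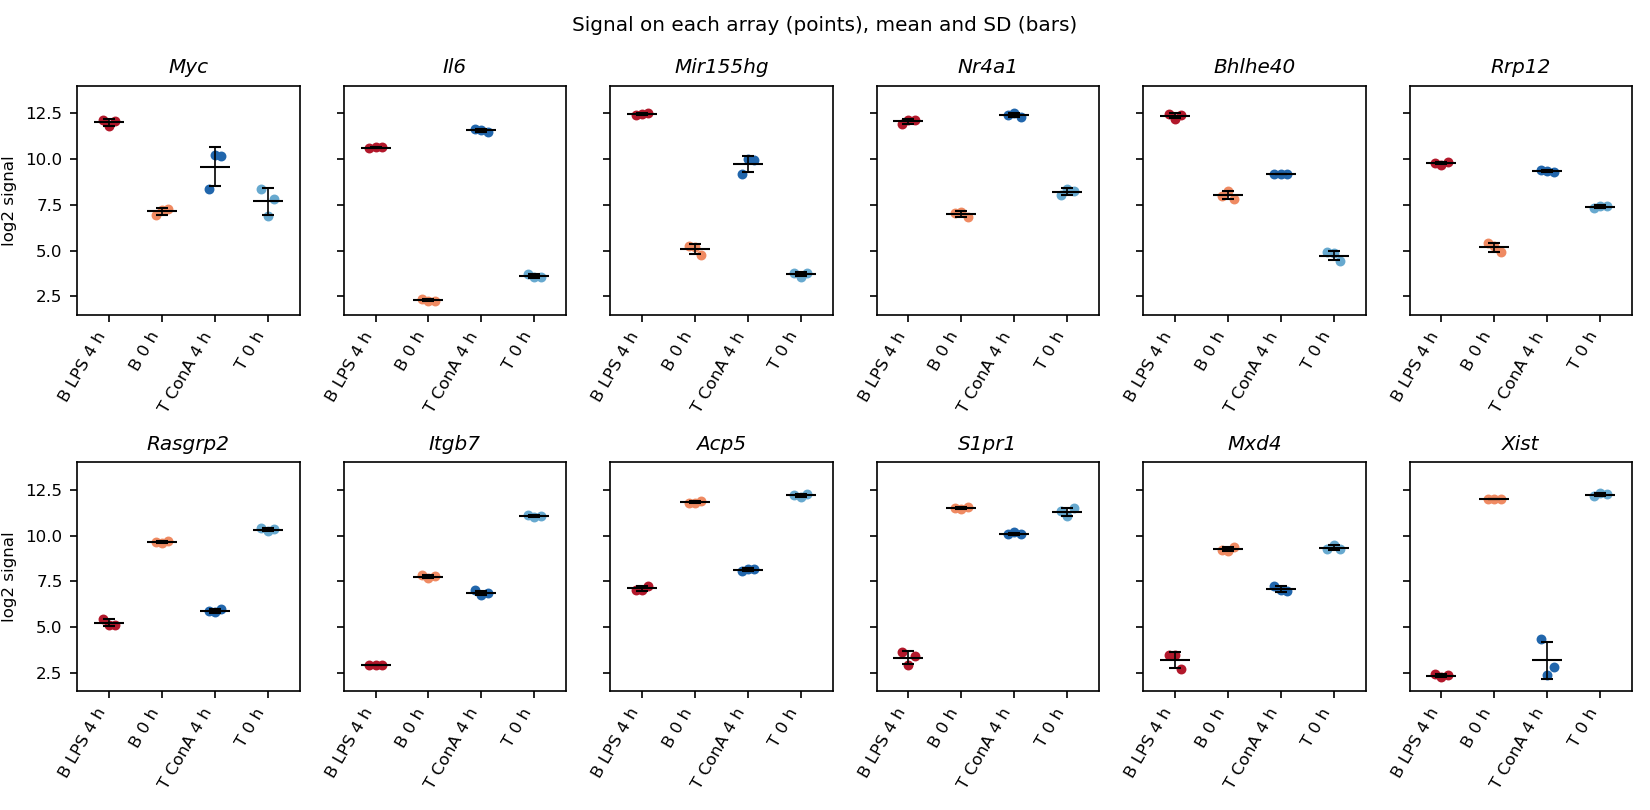
Log2 signal on each array (points) with the mean and SD of the 3 arrays of a group (bars) for 12 genes, in B cells with LPS 4 h, B cells at 0 h, T cells with ConA 4 h and T cells at 0 h. The upper row rose and the lower row fell in both lineages. Only Myc in T cells has arrays that meet, at 8.37 with ConA and 8.38 at 0 h. Genes named by size, Myc apart, were chosen with arrays that did not overlap.

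Many genes that hold lymphocytes at rest fell in both lineages. Of 28 measured quiescence and growth restraint genes 19 fell in both lineages, 2 rose in both and 3 were called in opposite directions, beside 25.4%, 26.4% and 7.59% of all genes tested, with a median change of -1.47 in B cells and -0.90 in T cells. Mxd4, a repressor that competes with Myc for its partner Max, had the largest average fall of the list. The B cell signals were 3.46, 3.46 and 2.69 on the LPS arrays, against 9.24, 9.17 and 9.37 on the 0 h arrays (log2), and the T cell signals 7.26, 7.0 and 6.99 on the ConA arrays, against 9.25, 9.49 and 9.29 on the 0 h arrays. At 0 h both lineages were level, and at 4 h B cells were near the floor. The changes were -6.06 ± 0.17 in B cells (adjusted p = 4.51e-13) and -2.26 ± 0.17 in T cells (adjusted p = 4.18e-08), and a second probe set gave -3.17 in B cells. Pik3ip1, an inhibitor of PI3 kinase, had a log2 signal of 3.86, 3.26 and 2.96 on the LPS arrays, against 6.53, 6.35 and 6.44 on the 0 h arrays, in B cells. T cells gave 7.76, 7.91 and 7.89 on the ConA arrays, against 10.53, 10.53 and 10.42 on the 0 h arrays. It fell in both without overlap, by -3.08 ± 0.16 in B cells (adjusted p = 3.36e-10) and -2.64 ± 0.16 in T cells (adjusted p = 5.48e-09). Rbl2, the retinoblastoma relative p130, changed by -4.01 ± 0.17 in B cells and -1.17 ± 0.17 in T cells.

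Klf2, a factor that maintains quiescence, fell by 2.79 in B cells and by 0.84 in T cells. Foxo1, which drives genes of the resting state, fell by 1.36 in B cells and by 1.06 in T cells. Cdkn1b, the cell cycle inhibitor p27, fell by 2.71 in B cells and by 0.95 in T cells. The 2 members that rose were Tob2, at 0.74 in B cells and 0.65 in T cells, and Slfn2, at 1.61 in B cells and 0.69 in T cells. Bach2, Sesn3 and Mxi1 were called in opposite directions, with 0.05 in T cells (adjusted p = 0.892) from a second probe set of Mxi1. Bach2, a repressor that keeps B cells from plasma cell differentiation, stood at -2.52 in B cells and 1.08 in T cells.

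Gimap, autophagy and lysosomal genes gave mixed lists. Of 8 measured Gimap genes, a cluster of GTPases tied to lymphocyte survival, 5 fell in both lineages and 0 rose. Among all genes tested 25.4% fell in both and 26.4% rose in both. Gimap7 changed by -6.05 ± 0.15 in B cells and -1.78 ± 0.15 in T cells, while Gimap6 changed by -1.34 in B cells and -0.42 in T cells and Gimap3 by -1.49 in B cells and -0.27 in T cells. Gimap4 and Gimap9 were called in opposite directions. Of 25 measured autophagy and lysosome genes 9 fell in both, 4 rose in both and 3 were called in opposite directions, namely Map1lc3b, Atg16l2 and Lamp1; beside them 25.4%, 26.4% and 7.59% of all genes tested did so. A second probe set of Map1lc3b gave -0.006 in T cells (adjusted p = 0.974). The 3 that fell most encode lysosomal cathepsins: Ctsa changed by -4.20 ± 0.07 in B cells and -0.86 ± 0.07 in T cells, Ctsd by -2.62 ± 0.10 in B cells and -2.39 ± 0.10 in T cells and Ctsb by -2.74 ± 0.13 in B cells and -0.94 ± 0.13 in T cells, whose second probe set gave -0.81 in T cells and did not pass there (adjusted p = 0.221). Cathepsins are also rich in macrophages, while 9 of 10 myeloid marker genes in the fit fell in B cells, and their part in these falls was not tested.

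Genes of the G2 and M phases were lower at 4 h. Of 12 measured G2/M genes 12 fell in both lineages, beside 25.4% of all genes tested. Of them 4 fell at least 2-fold in both, beside 7.51%. The median change of the list was -1.02 in B cells and -1.16 in T cells. Cdk1, the mitotic kinase, had a log2 signal of 7.55, 7.54 and 7.53 on the LPS arrays, against 8.29, 8.24 and 8.23 on the 0 h arrays, in B cells. T cell signals were 5.30, 4.77 and 5.17 on the ConA arrays, against 7.0, 7.19 and 6.86 on the 0 h arrays. All 4 h arrays were below all 0 h arrays of their lineage, and the changes were -0.71 ± 0.12 in B cells (adjusted p = 0.000122) and -1.94 ± 0.12 in T cells (adjusted p = 9.82e-09). Bub1, of the spindle checkpoint, changed by -1.25 ± 0.13 in B cells and -1.39 ± 0.13 in T cells, and Ccnb2, cyclin B2, by -1.20 ± 0.10 in B cells and -1.42 ± 0.10 in T cells. After 14 h of ConA the median of the list was -1.59 against T 0 h.

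Of 28 measured G1/S and DNA replication genes 10 fell in both lineages, 3 rose in both and 2 were called in opposite directions, beside 25.4%, 26.4% and 7.59% of all genes tested. The sign of this list's median depended on the level filter and the probe set. Tk1, thymidine kinase, fell in both. B cells gave log2 signals of 5.69, 4.81 and 5.12 on the LPS arrays, against 7.93, 8.13 and 7.98 on the 0 h arrays. T cells gave 2.59, 2.59 and 2.85 on the ConA arrays, against 5.48, 5.34 and 5.35 on the 0 h arrays. T cells with ConA were close to the floor, and the changes were -2.81 ± 0.21 in B cells (adjusted p = 2.17e-08) and -2.71 ± 0.21 in T cells (adjusted p = 8.29e-08). Cdc6, which loads the replicative helicase, changed by -1.87 ± 0.14 in B cells and -2.89 ± 0.14 in T cells, and Rrm2, of ribonucleotide reductase, by -1.33 ± 0.08 in B cells and -2.16 ± 0.08 in T cells. The members that rose were Cdk4, Pcna and Rfc3, with Cdk4, the partner of D cyclins, at 1.5 in B cells and 0.35 in T cells. Ccnd2, cyclin D2, was called in opposite directions at 4.57 in B cells and -0.52 in T cells, as was Cdk6 at 2.01 in B cells and -0.46 in T cells.

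Markers of red cell precursors, which divide in the mouse spleen, were measured beside these falls. Of 8 erythroid markers in the fit, 6 met the rule on level in both lineages. In B cells 7 of the 8 fell and 1 rose, where 79.9% of all genes in the fit were called. In T cells 6 fell and 1 rose, where 65.9% were called. The gene that rose in each lineage was Tfrc, the transferrin receptor, which activated lymphocytes also make. Klf1, the erythroid master factor, averaged 7.47 in B cells with LPS and 9.18 at 0 h, and 3.17 in T cells with ConA and 7.95 at 0 h. The summed level of the list was 13.51 to 13.59 in B cells with LPS and 13.81 to 13.94 at 0 h, and 12.32 to 12.36 in T cells with ConA and 12.81 to 12.85 at 0 h. With ConA that sum lay close to Tfrc alone, which averaged 12.17, against 10.04 in T cells at 0 h. The called falls ran from -0.87 for Epor to -4.79 for Aqp1 in T cells. In B cells they ran from -0.87 for Gata1 to -2.86 for Car1. Hba-a1, an alpha globin gene, was at or next to the floor in all groups. Alas2, of erythroid heme synthesis, was at the floor in both T cell groups and averaged 8.94 in B cells with LPS and 10.16 at 0 h. The part of these cells in the falls of Cdk1, Tk1 and the other cycle genes was not tested.

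Xist, the noncoding RNA that silences an X chromosome in female cells, had the largest average fall of the 7966 genes. In B cells its log2 signal was 2.42, 2.24 and 2.38 on the LPS arrays, against 12, 11.98 and 12 on the 0 h arrays, and in T cells 4.33, 2.38 and 2.84 on the ConA arrays, against 12.15, 12.31 and 12.29 on the 0 h arrays. Its signal was high on all 0 h arrays and near the floor on most 4 h arrays of both lineages. The changes were -9.65 ± 0.33 in B cells (adjusted p = 3.81e-12) and -9.06 ± 0.33 in T cells (adjusted p = 3.4e-11). At 14 h of ConA the mean signal was 11.77, with a change of -0.48 ± 0.33 from T 0 h. The other 2 probe sets of Xist averaged 2.32 and 2.24 in B cells with LPS, 10.52 and 4.44 at 0 h, 2.24 and 2.24 in T cells with ConA, and 10.70 and 7.73 at 0 h. Genes on the Y chromosome (Kdm5d, Uty, Eif2s3y) had signal in all groups: Eif2s3y averaged 10.96 in B cells with LPS, 10.79 at 0 h, 11.65 in T cells with ConA and 10.73 at 0 h. With ConA at 4 h Eif2s3y, Uty and Kdm5d rose in T cells, by 0.92, 0.53 and 0.43, while their changes in B cells did not pass. At 14 h of ConA they averaged 10.08, 6.22 and 7.39, below their T 0 h means of 10.73, 7.01 and 8.70. A difference between groups in the sex of the mice pooled for an array was not tested, since the labels give neither sex nor pooling. If sex differed between 0 h and 4 h, it could not be told apart from any shared change.

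X-linked genes were looked at beside Xist. Of 239 measured X-linked genes 19.2% rose and 32.6% fell in both lineages, with a median average change of -0.20, against 26.7% and 25.2% of 7704 autosomal genes and a median of -0.002. Kdm6a, a histone demethylase that escapes X inactivation, changed by -1.31 in B cells and -0.68 in T cells, and Eif2s3x, which escapes it too, by 0.60 in B cells and 0.58 in T cells. Of the 239 genes 46 rose and 78 fell in both lineages. The part of a difference in the sex of the mice in these shares was not tested.

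Interferon-stimulated and MHC class II genes had the highest shares of opposite calls among the lists. Of 15 measured interferon-stimulated genes 10 were called in opposite directions, 3 rose in both and 0 fell in both. Over all genes tested the shares were 7.59%, 26.4% and 25.4%. Ifit1, an antiviral RNA-binding protein, was the farthest apart, at 7.36 in B cells and -2.19 in T cells. Ifit2, Ifit3, Isg20, Oas1a, Irf7, Usp18, Ddx58 and Ifih1 were likewise higher with LPS in B cells and lower with ConA in T cells, and Irf1 went the other way, at -0.38 in B cells and 0.63 in T cells. The 3 that rose in both were Zbp1, at 2.96 in B cells and 1.20 in T cells, Gbp2, at 0.20 in B cells and 3.26 in T cells, and Parp14, at 2.57 in B cells and 0.80 in T cells.

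Of 9 measured MHC class II presentation genes 2 fell in both lineages, 0 rose in both and 6 were called in opposite directions. Among all genes tested the shares were 25.4%, 26.4% and 7.59%. H2-Oa, which restrains peptide loading, changed by -5.13 ± 0.10 in B cells and -2.44 ± 0.10 in T cells, and its partner H2-Ob by -2.24 ± 0.09 in B cells and -1.63 ± 0.09 in T cells. H2-Aa, H2-Ab1, H2-Eb1, H2-DMa, H2-DMb2 and Cd74 were lower with LPS in B cells and higher with ConA in T cells, with H2-DMa, of the peptide exchange factor, at -4.15 in B cells and 1.5 in T cells. A second probe set of H2-DMb2 gave 0.77 in T cells (adjusted p = 0.069). Their T cell levels were far below those of B cells: H2-Aa averaged 10.28 in T cells with ConA and 9.88 at 0 h, and 14.43 in B cells with LPS and 15.04 at 0 h. The summed level of B cell markers was 13.47 to 13.61 in T cells with ConA and 13.77 to 13.87 at 0 h. That sum lay close to Ighm alone, with means of 13.42 and 13.76. Of the 11 B cell markers in the fit 5 rose and 2 fell in T cells, where 65.9% of all genes in the fit were called. Cr2 rose by 3.23, Fcer2a by 1.88 and Ms4a1 by 0.95, while Cd79b stood at -0.53 and Ighm at -0.34. The part of B cells among the T cells in this list was not tested.

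The Bcl2 family sets survival and holds both protective and killer proteins. Of 9 measured members 4 rose in both lineages and 1 fell in both, beside 26.4% and 25.4% of all genes tested, and the list's median average change of 0.56 was -0.32 with the second brightest probe set. Bcl2l1, which protects cells, changed by 4.32 in B cells and 1.62 in T cells, and its second probe set gave 0.38 in T cells. The killers Bcl2l11 (Bim), at 2.55 ± 0.06 in B cells and 1.76 ± 0.06 in T cells, Pmaip1 (Noxa), at 2.01 ± 0.10 in B cells and 1.80 ± 0.10 in T cells, and Bbc3 (Puma), at 2.80 in B cells and 0.64 in T cells, rose as well. Bcl2 itself fell by 1.10 in B cells and by 0.25 in T cells.

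Clock genes rose while a clock output gene fell. Of 11 measured circadian genes 7 rose in both lineages and 1 fell in both, beside 26.4% and 25.4% of all genes tested. Per2, a repressor of the clock, rose in both lineages. Its log2 signal in B cells was 5.93, 5.93 and 6.03 on the LPS arrays, against 4.69, 4.83 and 4.37 on the 0 h arrays. The T cell values were 6.02, 6.16 and 6.25 on the ConA arrays, against 4.83, 4.65 and 4.83 on the 0 h arrays. No array overlapped, and the changes were 1.33 ± 0.15 in B cells (adjusted p = 1.31e-06) and 1.37 ± 0.15 in T cells (adjusted p = 2.02e-06), with a difference of -0.04 ± 0.21 (adjusted p = 0.879). Cry1, which acts with the Per proteins, changed by 1.70 ± 0.10 in B cells and 0.56 ± 0.10 in T cells. Dbp, an output factor of the clock, was the gene that fell, by -1.27 ± 0.18 in B cells and -2.37 ± 0.18 in T cells. After 14 h of ConA Per2 stood -0.98 ± 0.15 from T 0 h.

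Promoters were read for the E-box CACGTG, the core site that Myc with Max and several clock and other helix-loop-helix factors can bind. The window ran from 250 bases before to 50 after the start in RefSeq (GRCm38.p6), on both strands, and genes with exactly 1 listed promoter were used. CACGTG was present in 18.5% of the promoters of genes that rose at least 2-fold in both lineages (63 of 340) and in 6.44% of those that fell at least 2-fold in both (23 of 357), against 11.2% of all genes tested (589 of 5239) and 7.12% of all genes with 1 promoter. Among ribosome biogenesis genes that rose in both it was present in 14 of 45, or 31.1%. The cyclic AMP response element TGACGTCA was in 4.71% of the risers, 0.56% of the fallers and 3.82% of all genes tested. The AP-1-like pattern TGANTCA was in 4.71%, 4.76% and 3.74%, and CCAAT in 36.5%, 42.0% and 40.1%. N stood for any base, so TGANTCA is wider than the AP-1 site. The median GC content of these windows was 61.3%, 61.0% and 61.7%. A match says that the letters are there, not that a factor binds.

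Upstream sequences of 4 shared risers with a match are shown, 250 bases up to the base before the start, with CACGTG in capitals, to let the spacing from the start be compared. They are a signalling gene (Gadd45b, chr10:80929841-80930090, plus strand), a ribosome biogenesis gene (Nop2, chr6:125131633-125131882, plus strand), the proteasome activator (Psme3, chr11:101315963-101316212, plus strand) and Ciart, a repressor of the clock picked for its 3 matches after its values were seen (chr3:95882229-95882478, minus strand). Ciart changed by 4.24 ± 0.17 in B cells and 2.43 ± 0.17 in T cells, with means of 7.04 in B cells with LPS and 2.80 at 0 h, and of 5.20 in T cells with ConA and 2.78 at 0 h.
Gadd45b: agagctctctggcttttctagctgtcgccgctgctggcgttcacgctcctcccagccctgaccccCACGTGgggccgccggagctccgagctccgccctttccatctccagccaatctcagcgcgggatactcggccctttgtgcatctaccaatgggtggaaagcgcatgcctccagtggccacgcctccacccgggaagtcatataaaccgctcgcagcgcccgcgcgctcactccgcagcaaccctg
Nop2: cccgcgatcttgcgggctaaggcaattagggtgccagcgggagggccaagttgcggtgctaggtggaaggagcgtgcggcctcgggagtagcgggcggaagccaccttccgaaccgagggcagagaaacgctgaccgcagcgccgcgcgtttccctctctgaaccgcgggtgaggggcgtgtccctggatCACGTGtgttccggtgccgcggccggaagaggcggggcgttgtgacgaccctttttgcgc
Psme3: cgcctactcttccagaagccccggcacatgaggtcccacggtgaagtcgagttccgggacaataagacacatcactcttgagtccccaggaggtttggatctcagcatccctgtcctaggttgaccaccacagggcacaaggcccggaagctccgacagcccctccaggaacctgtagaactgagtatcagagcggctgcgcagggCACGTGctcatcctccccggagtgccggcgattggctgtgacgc
Ciart: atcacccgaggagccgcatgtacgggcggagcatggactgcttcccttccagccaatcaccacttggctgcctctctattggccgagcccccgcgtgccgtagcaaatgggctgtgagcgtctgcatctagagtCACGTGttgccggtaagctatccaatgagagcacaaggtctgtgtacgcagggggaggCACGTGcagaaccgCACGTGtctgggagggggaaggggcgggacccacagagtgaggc
The matches began 185 bases upstream in Gadd45b, 60 in Nop2, 44 in Psme3, and 116, 58 and 44 in Ciart.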

How the data were processed

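The values are log2 signals deposited by the authors, made, per the submitters' processing notes, with GCRMA, which corrects background and normalizes arrays to each other. Its version is not given in the labels. Of 45101 probe sets, 34958 carried 1 gene symbol in the platform annotation. The brightest over 15 arrays stood for each of 18194 genes, and 9045 genes with a group mean of at least 5 were fitted. limma 3.58.1 in R 4.3.3 fitted 5 group means, with contrasts for each lineage, their average and their difference, and Benjamini-Hochberg adjustment over the 9045 genes. A gene was called at an adjusted p under 0.05. Errors on changes are SE from that fit. The script was tested on simulated data.

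Members, gene lists and tests were chosen with earlier results of these data known. The genes named are Myc, then, among shared calls of at least 2-fold in both lineages, a level of 7 or more in the higher group of each lineage and arrays that did not overlap, the 12 largest average rises and falls and the next 6 of each by the smaller lineage change. From each list come up to 3 shared members of largest change and all opposite ones. Antigen receptor segments and predicted genes were left out, and further members were named after their values were seen. Markers were counted, not tested as sets. Replicate numbers did not pair arrays: same-numbered arrays' deviations correlated at -0.457 to 0.236. The number of arrays limits the precision.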

Additional observations from a re-analysis of the deposited data

Results flagged for a closer look

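For 134 of the 155 named genes the B cell change minus the T cell change passed its own limma test, and those differences, on the log2 scale, are listed here. Of all genes tested 65.3% passed it, so that passing is the common case. A positive value means a larger rise, or a smaller fall, with LPS in B cells than with ConA in T cells. Stimulus and lineage cannot be told apart in them. Among the genes named for the size of their shared rise, the differences were -5.68 for Irf4, 3.88 for Cxcl10, 3.8 for Il2ra, 3.15 for Ccl3, 3.08 for Txnrd3, 2.96 for Myc, 2.69 for Nr4a3, -2.61 for Crem, 2.53 for Dusp5, 1.38 for Mir155hg, 0.89 for Gadd45b and 0.88 for Nr4a1. Next came 0.55 for Atf3, -0.49 for Lad1, 0.4 for Il6 and 0.3 for Dusp4. For the genes named for their shared fall, where a negative value is a deeper fall in B cells, they were -7.0 for S1pr1, -5.69 for Cmah, -5.5 for Fam214a, 5.38 for Dtx1, -4.98 for Tm6sf1, -3.53 for Sipa1, -3.5 for Tbc1d10c, -3.09 for Pgap1, -2.82 for Ccdc69, -1.81 for Septin9, -0.73 for Rgs14 and -0.65 for Acp5. Next came -0.62 for Itgb7.

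List members that rose in both lineages, and more in B cells, differed by 3.25 for Sqle, 2.78 for Nup43, 2.76 for Cars, 2.7 for Bcl2l1, 2.66 for Rrp9, 2.64 for Rrp12, 2.36 for Idi1, 2.27 for Aars, 1.94 for Rcc1, 1.93 for Shmt2, 1.9 for Psat1 and 1.83 for Hk2. Next came 1.8 for Srm, 1.79 for Eif2b3, 1.77 for Zbp1, 1.77 for Parp14, 1.75 for Slc7a5, 1.7 for Cyp51, 1.64 for Tars, 1.57 for Eef1e1, 1.51 for Ipo4, 1.42 for Hsph1, 1.31 for Ldha and 1.27 for Polr1b. Smaller gaps followed, at 1.19 for Cd69, 1.17 for Stip1, 1.14 for Cry1, 1.04 for Psmd7, 0.93 for Slc7a6, 0.79 for Bcl2l11, 0.74 for Eif1a, 0.68 for Slc7a1, 0.61 for Hspa9, 0.59 for Psmc5, 0.58 for Tnfaip3 and 0.57 for Rgs1. Then came 0.49 for Cox5a, 0.33 for Psme3 and 0.27 for Ndufa5. Those that rose more in T cells differed by -4.38 for Sema7a, -3.06 for Gbp2 and -1.2 for Cd83. List members that fell in both, and further in B cells, differed by -4.26 for Gimap7, -3.97 for S1pr4, -3.8 for Mxd4, -3.35 for Ctsa, -2.84 for Rbl2, -2.69 for H2-Oa, -1.8 for Ctsb, -1.22 for Gimap3, -0.92 for Gimap6, -0.63 for Kdm6a and -0.62 for H2-Ob. Those that fell further in T cells differed by 1.23 for Cdk1, 1.09 for Dbp, 1.03 for Cdc6 and 0.83 for Rrm2.

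Members higher with LPS in B cells and lower with ConA in T cells differed by 9.55 for Ifit1, 5.54 for Usp18, 5.09 for Ccnd2, 5.07 for Ccl5, 5.02 for Ifit3, 4.6 for Ifit2, 4.54 for Il7r, 4.32 for Fos, 4.17 for Ifih1, 4.05 for Irf7, 3.36 for Eif4ebp1 and 3.11 for Tnfaip2. Next came 2.96 for Ddx58, 2.87 for Mvd, 2.48 for Isg20, 2.47 for Cdk6, 2.35 for Oas1a, 2.08 for Phgdh, 1.99 for Itgal, 1.85 for Selplg, 1.7 for Sars, 1.59 for Mxi1, 1.2 for Ubtf and 1.12 for Tpi1. Smaller gaps followed, at 0.5 for Tnpo1 and 0.48 for Sdhd. Members lower with LPS in B cells and higher with ConA in T cells differed by -5.65 for H2-DMa, -5.26 for Egr3, -4.36 for H2-DMb2, -4.25 for Sesn3, -4.12 for Rgs2, -3.6 for Bach2, -3.24 for Slamf1, -3.17 for Atg16l2, -2.3 for Il4ra, -2.11 for Lta, -1.68 for Gimap9 and -1.66 for Tnfrsf18. Next came -1.32 for H2-Eb1, -1.11 for Cd74, -1.1 for H2-Ab1, -1.04 for Cxcr4, -1.02 for H2-Aa, -1.01 for Irf1, -0.94 for Nup160, -0.92 for Map1lc3b, -0.85 for Lamp1 and -0.71 for Gimap4.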

How the results depend on the processing

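The 37 genes named by size kept their direction and stayed called in the average of both lineages in each of the 863 values computed over 24 settings, of which the second brightest probe set gave a value for 12 of these genes alone. Myc apart, these genes were picked from the same data for large changes without overlap, so that this outcome was largely set in advance. In T cells the second probe set of Pgap1 gave 0.01 (adjusted p = 0.961). Of all 72 named genes with a second probe set in the fit, 66 moved the same way in both lineages, of which 5 lost a call in a lineage, and 6 turned in a lineage; 23 moved by over 1.5 times in a lineage. Leaving out 1 array at a time gave 1969 to 2106 genes that rose in both lineages, 1871 to 2024 that fell in both, 495 to 527 and 589 to 632 that did so by at least 2-fold, 541 to 645 in opposite directions, and 3191 to 3297 average rises and 3305 to 3401 average falls. The second brightest probe set, available for fewer genes, 3513, gave 891 shared rises and 651 shared falls, 290 and 218 of at least 2-fold, 254 opposite calls, and 1544 average rises and 1194 average falls, with shares of 25.4%, 18.5% and 7.23% for rises, falls and opposite calls. A limma treat test against a 2-fold change, stricter by construction, left 274 rises and 372 falls. The replicate block gave 2079 shared rises and 1993 shared falls. Without both arrays of weak 5' spike-in signal there were 2088 shared rises, 1922 shared falls and 625 opposite calls. Replicate numbers did not pair the arrays, with the own number correlating best in 8 of 36 cases. Taking both arrays of weak 5' spike-in signal as a batch term, chosen after seeing the data, changed no direction among the 37 genes named by size. The other named genes were not checked singly under it.

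Medians of lists changed sign in 7 of 671 values: respiratory chain under cyclic loess (-0.03), G1/S genes at a level filter of 6 (0.05) and, with the second brightest probe set, G1/S genes (0.30), egress genes (0.43), autophagy genes (0.20), the Bcl2 family (-0.32) and sex-linked genes (-0.10). The cause was not tested. Genes near the floor of 2.24 have changes that understate the difference, and the number of arrays, 3 in each group, limits small changes.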
